A study of Mus musculus with 12 samples.

Results

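The genes described here encode the enzymes and binding proteins that remove reactive oxygen species, together with the regulators of the NRF2 pathway that control many of them. The 35 members were chosen by name, among the gene names that the array files give for each probe. All 35 had at least 1 probe, with 59 probes in all. Of the 35, 33 passed the filter on dim probes and were tested, among 15830 genes tested on the array.

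The study asked what di-(2-ethylhexyl) phthalate (DEHP), a plasticizer, does to gene expression in adult Leydig cells, the testosterone-producing cells that lie between the seminiferous tubules of the testis. All mice were male C57BL/6J, aged 21 weeks at sampling, and received daily gavage for 21 days with either DEHP at 200 mg/kg per day in corn oil or corn oil alone as vehicle. Leydig cells were cut by laser from frozen sections of 1 testis per mouse, and the RNA of each mouse went through 2 rounds of amplification. RNA of 2 DEHP mice (numbers 1 and 4) and 3 vehicle mice (numbers 1, 2 and 4) was hybridised in all pairs of a DEHP with a vehicle mouse and in both dye orientations, which gave 12 arrays on 3 slides. Exposure groups held 4 mice each, per the labels, and only these 5 animals are analysed here. The mouse is the replicate, so n = 2 against n = 3 throughout, and a shared mouse number does not pair animals. Vehicle mouse 4 is the single vehicle mouse on slide 3, so that mouse and slide cannot be told apart for it.

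Cells remove superoxide with superoxide dismutases, which make hydrogen peroxide, and then remove the peroxide with glutathione peroxidases, peroxiredoxins and catalase. Glutathione and thioredoxin supply the electrons, reductases recharge them, and the pentose phosphate pathway provides the NADPH that the reductases use. The transcription factor NRF2, encoded by Nfe2l2, is held low by KEAP1, and under oxidative stress it escapes and switches on genes through antioxidant response elements. In Leydig cells this system is known for its place beside the cytochrome P450 enzymes of steroid synthesis, which leak reactive oxygen.

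No member differed between DEHP and vehicle mice after correction over all genes. Of the 33 tested members 0 had an adjusted p under 0.05 in limma, as did 0% of all 15830 genes, and the smallest adjusted p of any gene was 1.00. At an unadjusted p under 0.05 there was 1 member, Keap1, or 3.03% of the members against 0.859% of all genes. This count rests on single mice. Without vehicle mouse 1 it was 4 (Nfe2l2, Gpx4, Gsr and Srxn1), but the count over all genes rose too, from 136 to 524 of 15830. Without vehicle mouse 2 it was 0, with 133 of all 15830 genes, and without vehicle mouse 4 it was 0, with 53 of 15831. Leaving out a DEHP mouse leaves 1 in that group, and no such count is given here for these fits. The median difference of the members, DEHP minus vehicle, was 0.03 on the log2 scale, with 19 of 33 above 0. That number was 11 without DEHP mouse 1 and 11 without vehicle mouse 1, and 27 without DEHP mouse 4. The median over all genes was -0.01, with 48.3% above 0. The DEHP mice both lay outside the range of the vehicle mice for 2 members, Keap1 and Gpx2, each time above it. That is 6.06% of the members, against 9.17% of all genes in either direction and 3.95% in this direction. With 2 against 3 mice an exact permutation test cannot give a two-sided p below 0.20.

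The spread between mice of the same group was larger than most of these differences. The standard error of the difference ranged from 0.18 to 0.84 over the members, with a median of 0.37 against 0.27 for all genes. The median width of the 95% interval was 1.83 log2 units, and for 32 of the 33 members the interval held 0. A member of median precision needed an observed difference of more than 0.91 log2 units for its interval to leave out 0. That value is not a limit of detection, and the interval is not adjusted for the number of genes. It rose and fell with the standard error: the interval of Keap1 left out 0 at a difference of 0.85 (SE 0.29). Even so, Keap1 did not pass the adjusted threshold. The absence of a difference is not shown for any member.

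Mouse values below are log2 values estimated from the log ratios of the arrays. They are relative to the mean of the 5 mice, so that a value of 1 is 2-fold above that mean. They compare mice for 1 probe and say nothing of how abundant a transcript is against another.

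**Figure D1:**
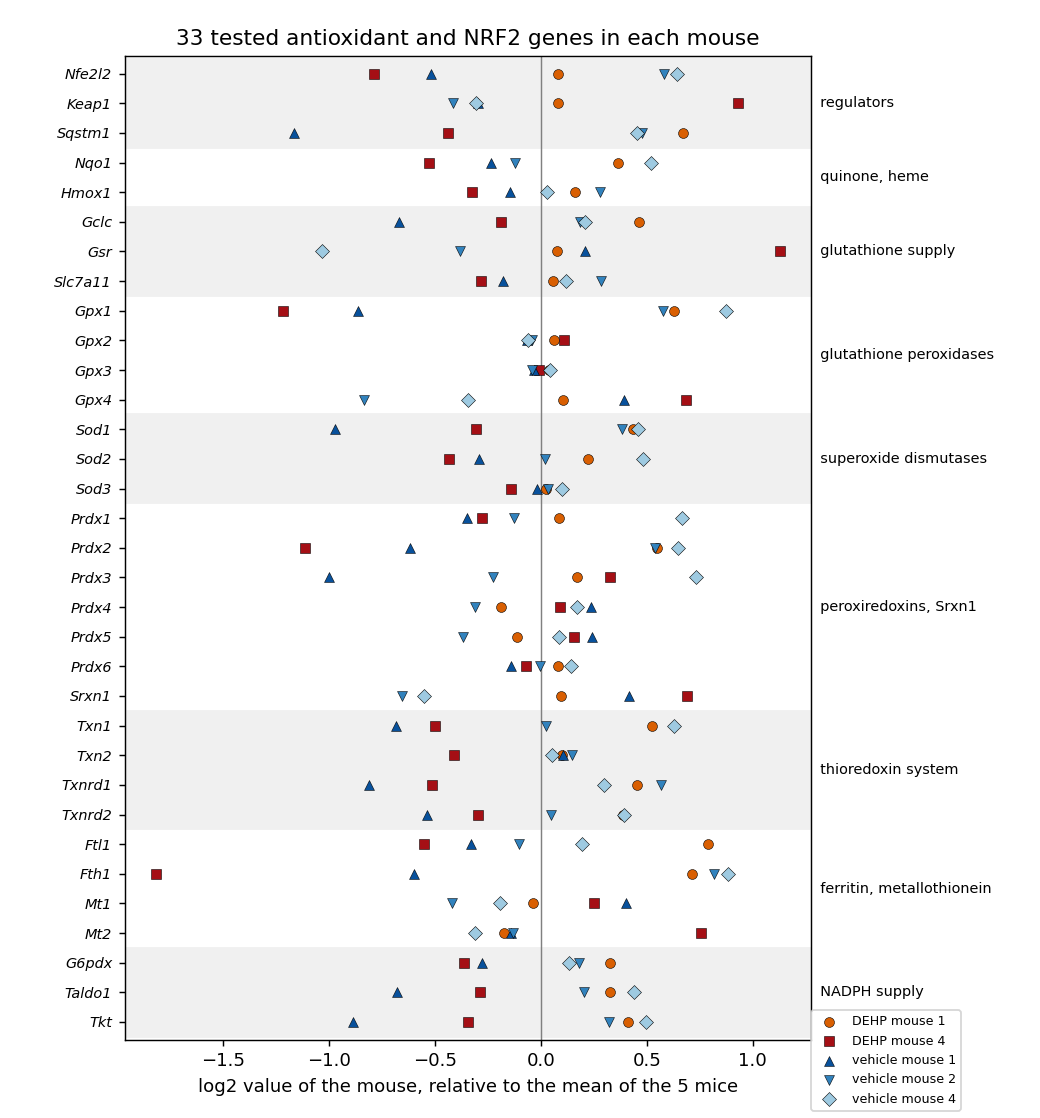
The horizontal axis gives log2 values per mouse, centred on the mean of all 5, and the vertical axis lists the 33 tested members by role, with circles and squares for the 2 DEHP mice and triangles and diamonds for the 3 vehicle mice. DEHP mouse 4 and vehicle mouse 1 lie at the low end for most members, Fth1 down to -1.82 and Sqstm1 down to -1.16, and Keap1 and Gpx2 are the members whose DEHP mice both lie above all vehicle mice.

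The regulators came first. Keap1 encodes the adaptor that hands NRF2 to a ubiquitin ligase for degradation, and it had 1 probe on the array, at chr9:21107406-21107846 on the minus strand of assembly mm7. The coordinates cover 441 bases for 60 probe bases, so the ends of the probe lie apart in the genome. Its sequence is shown because Keap1 is the member of lowest p, beside the probes of Gpx1 (chr9:108073279-108073338) and Gpx4 (chr10:79836650-79836709), glutathione peroxidases with opposite patterns over the mice that are described below. Each holds a reading frame free of stop codons, and all 3 are written 5′ to 3′ in lower case.
Keap1: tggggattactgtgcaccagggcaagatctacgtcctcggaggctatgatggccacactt
Gpx1: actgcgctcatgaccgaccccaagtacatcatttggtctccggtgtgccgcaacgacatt
Gpx4: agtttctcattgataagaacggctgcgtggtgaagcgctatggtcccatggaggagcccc
The Gpx1 and Gpx4 probes were chosen for display after their values were seen.

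Keap1 measured 0.08 in DEHP mouse 1 and 0.93 in DEHP mouse 4, against -0.30, -0.41 and -0.31 in vehicle mice 1, 2 and 4. The vehicle mice lay close together, and both DEHP mice lay above them, DEHP mouse 4 far more than DEHP mouse 1. The mean was 0.51 ± 0.60 (SD, n = 2) under DEHP and -0.34 ± 0.06 (SD, n = 3) under vehicle. The difference was 0.85 (SE 0.29, 95% interval 0.12 to 1.57), or 1.80-fold, with an adjusted p of 1.00 over all genes. By its unadjusted p Keap1 stood at rank 59 of the 15830 genes.

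The log2 ratio of DEHP over vehicle for Keap1 was above 0 on 12 of 12 arrays. It ran from 0.25 to 0.57 on the 6 arrays of DEHP mouse 1. On the 6 arrays of DEHP mouse 4 its median was 1.33 and its highest value 1.38, and all 6 lay above those of DEHP mouse 1. Within slides the difference was 0.94, 0.79 and 0.81 on slides 1, 2 and 3. Slides 1 and 2 hold vehicle mice 1 and 2, each slide in 1 dye orientation, so their values include any dye effect. Slide 3 holds vehicle mouse 4 alone, in both orientations. Leaving out DEHP mouse 4 took the difference to 0.42, and leaving out DEHP mouse 1 took it to 1.27, so the size rests on DEHP mouse 4 while the sign does not.

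Nfe2l2, which encodes NRF2 itself, stood at 0.08 and -0.78 (DEHP mice 1 and 4) and at -0.52, 0.58 and 0.64 (vehicle mice 1, 2 and 4). The groups overlapped, with DEHP mouse 4 and vehicle mouse 1 both low. The difference was -0.59 (SE 0.46, 95% interval -1.73 to 0.55).

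Sqstm1 encodes p62, an autophagy receptor that binds KEAP1 and is itself an NRF2 target. DEHP mice 1 and 4 stood at 0.67 and -0.44, vehicle mice 1, 2 and 4 at -1.16, 0.48 and 0.45. Vehicle mouse 1 was lowest and DEHP mouse 1 highest, and the difference of the groups was 0.19 (SE 0.62).

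**Figure D2:**
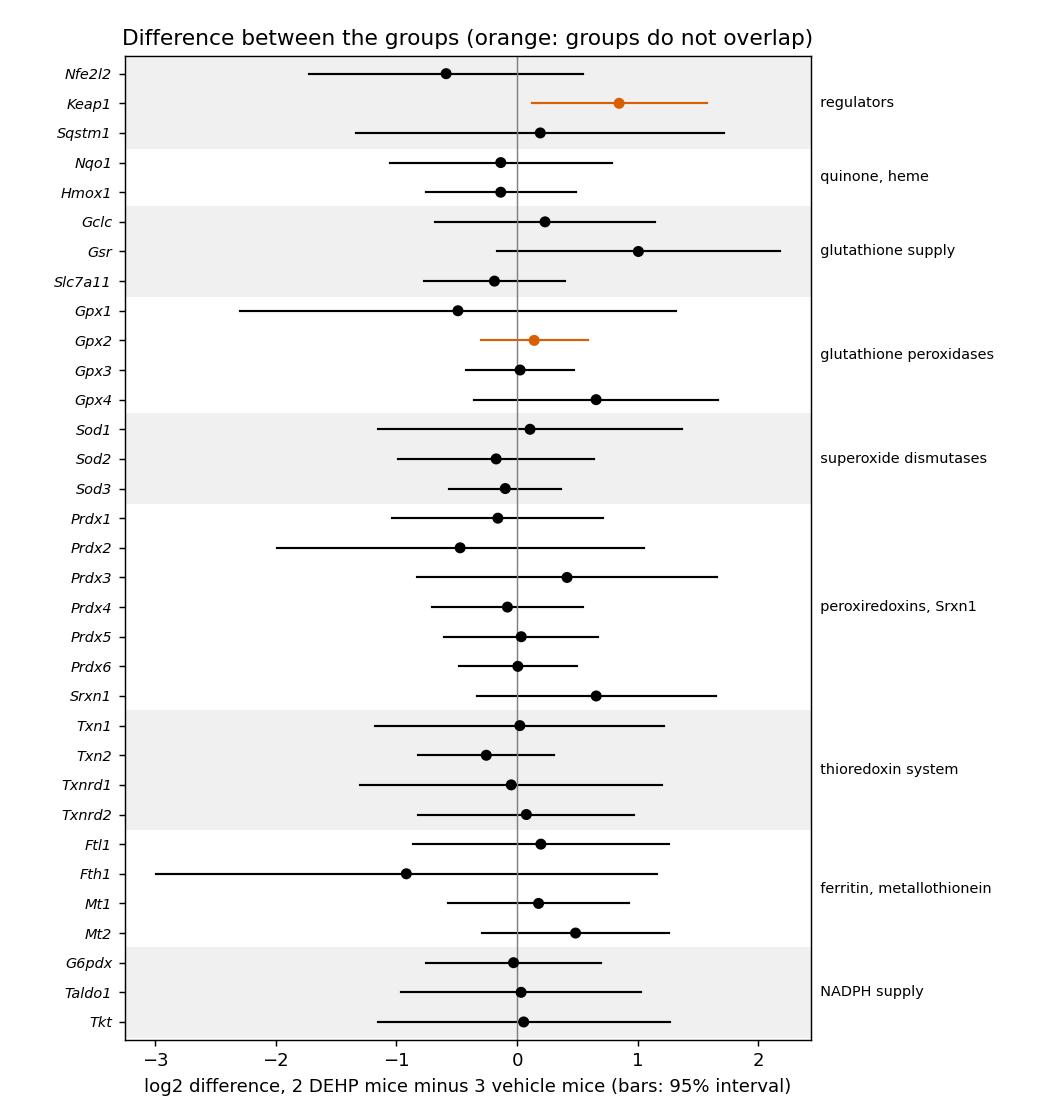
Points give the log2 difference of the 2 DEHP minus the 3 vehicle mice for each of the 33 tested members and bars its 95% interval, with members grouped by role on the vertical axis. Only the Keap1 interval, 0.12 to 1.57, lies on 1 side of 0, and the 2 orange members are those whose groups do not overlap.

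Nqo1 and Hmox1 are the textbook readouts of NRF2 activity, a quinone reductase and the inducible heme oxygenase. Nqo1 stood at 0.37 and -0.53 (DEHP mice 1 and 4) and at -0.23, -0.12 and 0.52 (vehicle mice 1, 2 and 4). Hmox1 measured 0.16 and -0.32 in the DEHP mice and -0.15, 0.28 and 0.03 in the vehicle mice in the same order. Neither gene separated the groups, and both differences were -0.14 (SE 0.37 for Nqo1 and 0.25 for Hmox1). Hmox1 was dim, well above background in 7 of 12 DEHP channels and 9 of 12 vehicle channels, so its values near the background can understate a change.

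Of the 5 genes that supply glutathione, 3 could be tested. Gclm, the modifier subunit of the enzyme that sets the rate of glutathione synthesis, was well above background in 0 of 24 channels. Gss, glutathione synthetase, reached that level in 1 DEHP channel and 3 vehicle channels. For these genes the array gave no group comparison.

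The catalytic partner of Gclm, Gclc, was bright in all channels. DEHP mice 1 and 4 stood at 0.46 and -0.19, vehicle mice 1, 2 and 4 at -0.67, 0.19 and 0.21, a difference of 0.23 (SE 0.37) with overlapping groups. Slc7a11, the cystine importer, measured 0.06 and -0.28 in the DEHP mice and -0.18, 0.28 and 0.12 in the vehicle mice, a difference of -0.19 (SE 0.24). It was above background in 5 DEHP and 8 vehicle channels of 12.

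Gsr, which reduces oxidised glutathione with NADPH, had the largest difference of any member. Its brightest probe stood at 0.08 and 1.13 (DEHP mice 1 and 4) and at 0.21, -0.38 and -1.03 (vehicle mice 1, 2 and 4). Vehicle mouse 1 lay above DEHP mouse 1, so the groups overlapped. The difference was 1.01 (SE 0.47, 95% interval -0.17 to 2.18), or 2.01-fold, with an adjusted p of 1.00, and it was 0.48 without DEHP mouse 4.

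The other probes of Gsr, both dimmer, did not show this. The brightest probe lies at chr8:32465210-32465269 (mm7), and the others start 565 and 586 bases further on. The difference was -0.05 (SE 0.24) for the probe at 565 bases and 0.00 (SE 0.22) for the one at 586 bases. Their log2 intensities per mouse were 6.71 to 7.21 and 7.35 to 7.60, against 7.61 to 9.87 for the brightest probe. Dim probes can understate a change. The order of the mice differed too: vehicle mouse 4, lowest at -1.03 with the brightest probe, was highest at 0.35 and 0.25 with the others. The mean over the 3 probes gave a difference of 0.32. The level of Gsr in these mice is therefore uncertain, and which exon or transcript each probe lies in was not analysed here.

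**Figure D3:**
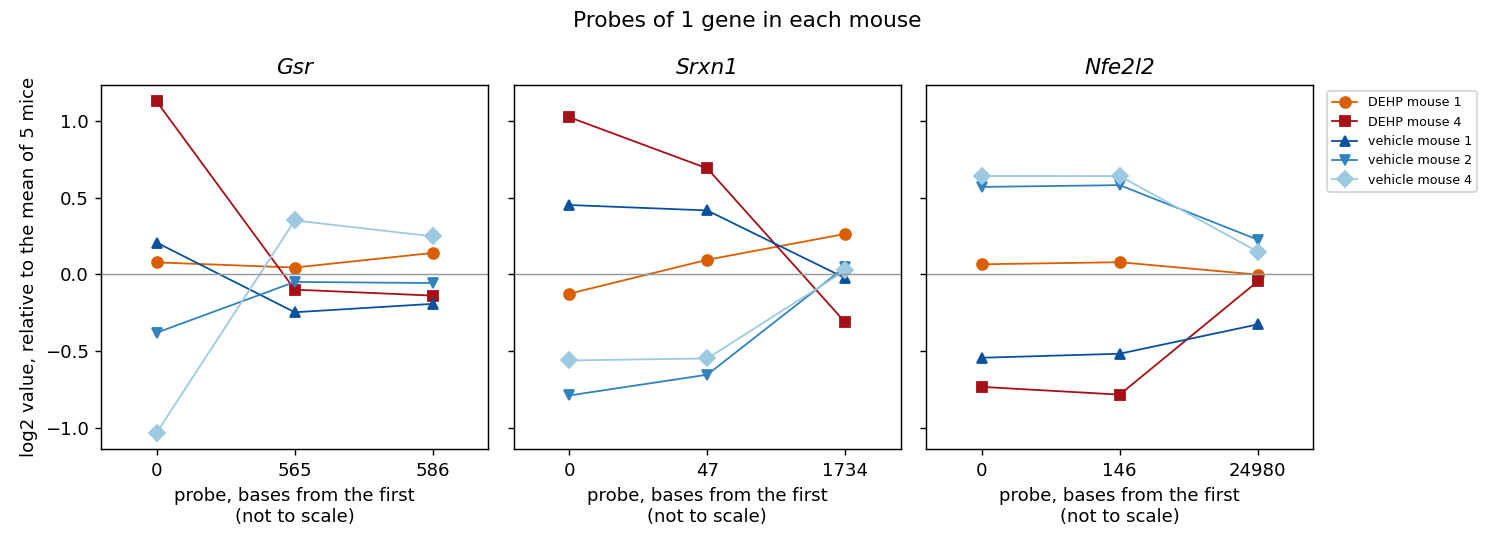
Each panel gives log2 values per mouse, centred on the mean of all 5, for the 3 measured probes of Gsr, Srxn1 and Nfe2l2, ordered by bases from the first probe (spacing not to scale). The DEHP mouse 4 line falls from 1.13 to near 0 between the first and the other Gsr probes and from 1.03 and 0.69 to -0.31 in Srxn1.

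Srxn1 encodes sulfiredoxin, which repairs over-oxidised peroxiredoxins and is an NRF2 target. DEHP mice 1 and 4 stood at 0.10 and 0.69, vehicle mice 1, 2 and 4 at 0.42, -0.65 and -0.55, with overlapping groups. The difference was 0.66 (SE 0.40, 95% interval -0.33 to 1.65).

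A neighbouring Srxn1 probe that overlaps the first gave 0.75 (SE 0.50). The third, at chr2:151852040-151852099 (mm7), was dimmer and gave -0.04 (SE 0.23), with DEHP mouse 4 lowest at -0.31 in place of highest. In Nfe2l2 the probes at 0 and 146 bases gave -0.56 and -0.59. The other probe, which was dim and above background in 9 of 12 channels of each group, gave -0.04.

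The glutathione peroxidases split in opposite ways over the mice. Gpx1, the main cytosolic enzyme, stood at 0.63 and -1.22 (DEHP mice 1 and 4) and at -0.86, 0.58 and 0.88 (vehicle mice 1, 2 and 4). Gpx4, which reduces lipid hydroperoxides in membranes and is also a structural protein of sperm, measured 0.10 and 0.68 in the DEHP mice and 0.39, -0.83 and -0.34 in the vehicle mice. DEHP mouse 4 and vehicle mouse 1 were the lowest pair for Gpx1 and the highest pair for Gpx4. The differences were -0.49 (SE 0.73, 95% interval -2.30 to 1.32) for Gpx1 and 0.66 (SE 0.41, 95% interval -0.36 to 1.67) for Gpx4, and both intervals held 0.

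Gpx2, best known from the gut lining, was the other member whose groups did not overlap. DEHP mice 1 and 4 stood at 0.06 and 0.11, vehicle mice 1, 2 and 4 at -0.07, -0.04 and -0.06. The separation was small and lay near the background, with 6 DEHP and 7 vehicle channels of 12 above it, and the difference was 0.14 (SE 0.18). Gpx3, the secreted enzyme, was above background in 1 DEHP and 5 vehicle channels and differed by 0.03 (SE 0.18).

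Of the superoxide dismutases, Sod2 in mitochondria had the largest difference. DEHP mice 1 and 4 stood at 0.22 and -0.43, vehicle mice 1, 2 and 4 at -0.29, 0.02 and 0.48, which came to -0.17 (SE 0.33). The cytosolic Sod1 differed by 0.11 (SE 0.51). The extracellular Sod3, above background in 1 DEHP and 4 vehicle channels, differed by -0.10 (SE 0.19). For all 3 genes the groups overlapped.

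Peroxiredoxins are abundant thiol peroxidases of the cytosol, mitochondria and endoplasmic reticulum. Prdx1 to Prdx6 were all bright, and none separated the groups. Their differences ran from -0.47 (SE 0.61) for Prdx2, a cytosolic form, to 0.41 (SE 0.50) for the mitochondrial Prdx3. Prdx6, which uses glutathione, varied least of these, with a range of 0.28 over the 5 mice and a difference of 0.01 (SE 0.20).

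The thioredoxin system had the same spread. Txnrd1, the cytosolic thioredoxin reductase and an NRF2 target, stood at 0.45 and -0.51 (DEHP mice 1 and 4) and at -0.81, 0.57 and 0.30 (vehicle mice 1, 2 and 4). The mitochondrial thioredoxin Txn2 measured 0.10 and -0.41 in the DEHP mice and 0.11, 0.15 and 0.05 in the vehicle mice. Txnrd1 differed by -0.05 (SE 0.51), and Txn2, low in DEHP mouse 4 alone, by -0.25 (SE 0.23). A second, dimmer Txn2 probe gave 0.09 (SE 0.17), and DEHP mouse 4 was not low in it, at 0.08. The cytosolic thioredoxin Txn1 and the mitochondrial reductase Txnrd2 differed by 0.02 and 0.08.

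The metal-binding proteins held both the lowest value and one of the highest values of DEHP mouse 4. Fth1, the ferritin heavy chain, which oxidises and stores iron, stood at 0.71 and -1.82 (DEHP mice 1 and 4) and at -0.60, 0.81 and 0.88 (vehicle mice 1, 2 and 4). Its range of 2.70 was the widest of the 33 members. The difference was -0.92 (SE 0.84, 95% interval -2.99 to 1.16), and it turned to 0.35 without DEHP mouse 4.

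Mt2, a metallothionein that binds zinc and copper, stood at -0.17 and 0.75 (DEHP mice 1 and 4) and at -0.14, -0.13 and -0.31 (vehicle mice 1, 2 and 4). DEHP mouse 4 stood alone above the others. The difference was 0.48 (SE 0.31, 95% interval -0.29 to 1.26) and 0.02 without DEHP mouse 4. The related Mt1 differed by 0.18 (SE 0.30), and the ferritin light chain Ftl1 by 0.20 (SE 0.43).

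The NADPH-supplying enzymes G6pdx, Taldo1 and Tkt of the pentose phosphate pathway had differences of -0.03, 0.03 and 0.05. Tkt, with the largest of these, stood at 0.41 and -0.34 (DEHP mice 1 and 4) and at -0.89, 0.32 and 0.50 (vehicle mice 1, 2 and 4). As for most members, DEHP mouse 4 and vehicle mouse 1 were low and the other 3 mice high, which leaves group means close together and wide errors.

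Each array paired a DEHP with a vehicle mouse, so mice of the same group were compared indirectly, through the partners they shared. The contrasts of single mice below were tested over the arrays in limma, so their errors hold the technical spread only and their p-values say nothing of DEHP. Between DEHP mouse 4 and DEHP mouse 1, 30 of 33 members differed at an adjusted p under 0.05, or 90.9%, against 77.4% of all genes. Of these, 21 were lower in DEHP mouse 4, or 63.6% of the members, against 41.1% of all genes.

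Between vehicle mice 1 and 2, 26 members differed, or 78.8%, against 71% of all genes, and 20 were lower in vehicle mouse 1, or 60.6%, against 38% of all genes. Between vehicle mice 4 and 2, 16 members differed, or 48.5%, against 57.4% of all genes, and 2 of them, Gsr and Txnrd1, were lower in vehicle mouse 4 (6.06% of members, 29.1% of all genes). The median difference of the members was -0.51 for DEHP mouse 4 minus 1, -0.31 for vehicle mouse 1 minus 2 and 0.11 for vehicle mouse 4 minus 2. Over all genes the medians were -0.05, -0.04 and -0.01.

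Both contrasts, DEHP mouse 4 against 1 and vehicle mouse 1 against 2, share no animal. In 19 members both were called and both lower, or 57.6% against 27.4% of all genes. These were Nfe2l2, Sqstm1, Hmox1, Gclc, Slc7a11, Gpx1, Sod1, Sod2, Prdx1, Prdx2, Prdx6, Txn1, Txnrd1, Txnrd2, Ftl1, Fth1, G6pdx, Taldo1 and Tkt. In 6 members both were called and both higher, or 18.2% against 23.5% of all genes. These were Gsr, Gpx4, Prdx4, Prdx5, Srxn1 and Mt1, each read from its brightest probe. At least 1 other, dimmer probe each of Gsr, Srxn1, Mt1 and Prdx4 was lower in DEHP mouse 4 than 1. The other Mt1 probe gave 0.06 and -0.12 in DEHP mice 1 and 4, and the other Prdx4 probe 0.49 and -0.36. Among the 19, a dimmer probe of Prdx6 ran the other way, with 0.01 and 0.28 in these mice. Prdx3 was called in opposite directions, and Keap1, Nqo1, Gpx2, Gpx3, Sod3, Txn2 and Mt2 were not called in both.

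The largest differences in DEHP mouse 4 against 1 were -2.53 (SE 0.06) for Fth1, -1.85 (SE 0.05) for Gpx1 and -1.66 (SE 0.04) for Prdx2. In vehicle mouse 1 against 2 the same genes differed by -1.41 (SE 0.07), -1.44 (SE 0.06) and -1.16 (SE 0.05). Sqstm1, with -1.11 and -1.64, and Nfe2l2, with -0.86 and -1.10, moved further in the vehicle pair. These animal-to-animal differences exceed the difference between the groups for the same genes.

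In Keap1, Mt2, Nqo1 and Txn2 the DEHP mice differed while the pair of vehicle mice 1 and 2 was not called. Keap1 was 0.85 (SE 0.04) higher in DEHP mouse 4 than in DEHP mouse 1, while vehicle mouse 1 minus 2 was 0.12 (SE 0.05), which was not called. Mt2 was 0.93 (SE 0.07) higher in DEHP mouse 4 than in mouse 1, with -0.01 (SE 0.08) in the vehicle pair. Nqo1 was lower in DEHP mouse 4, at -0.89 (SE 0.09) against -0.11 (SE 0.12) in the vehicle pair, and Txn2 at -0.51 (SE 0.03) against -0.04 (SE 0.04). The dimmer Txn2 probe did not show this, with 0.03 and 0.08 in DEHP mice 1 and 4. In Nqo1 vehicle mouse 4 was higher than vehicle mice 2 and 1, by 0.64 (SE 0.12) and 0.75 (SE 0.12), and both contrasts were called. In Keap1, Mt2 and Txn2 no contrast between vehicle mice was called. Whether these gaps differ between the groups was not tested, as the DEHP group gives 1 such contrast.

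**Figure D4:**
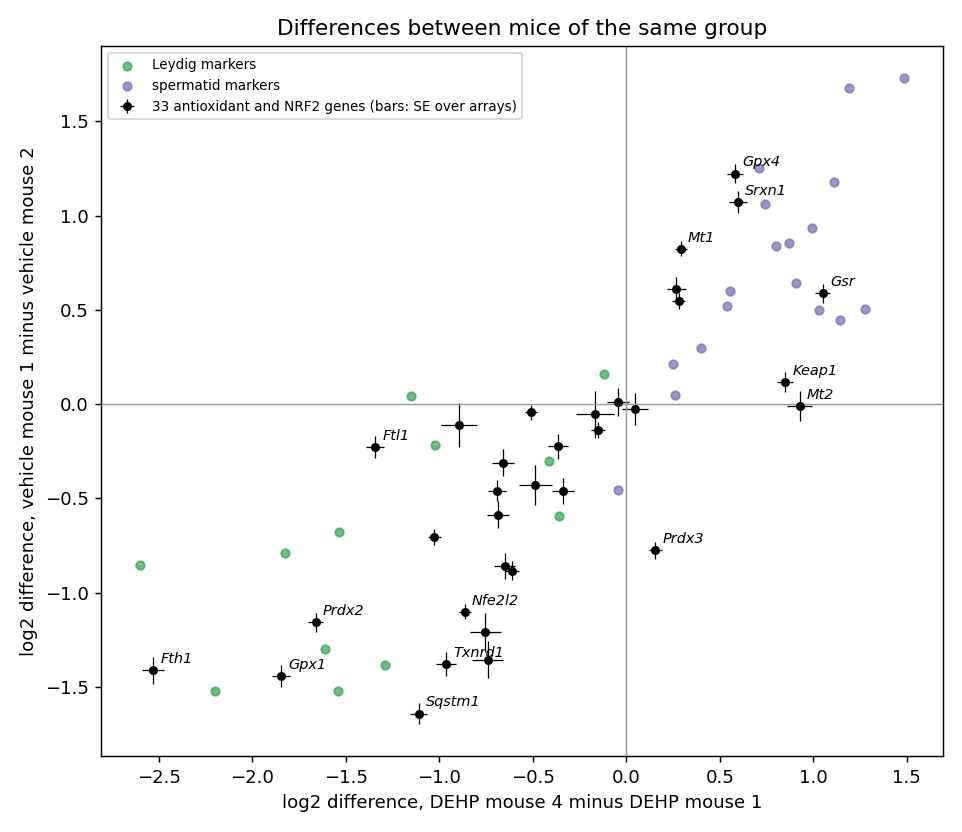
The horizontal axis gives the log2 difference of DEHP mouse 4 minus DEHP mouse 1 and the vertical axis that of vehicle mouse 1 minus vehicle mouse 2, with black points for the 33 members (bars: SE over arrays), green for Leydig markers and purple for spermatid markers. Fth1, Gpx1, Prdx2 and Sqstm1 lie at the lower left among the Leydig markers, Gpx4, Srxn1, Mt1 and Gsr at the upper right among the spermatid markers, and Keap1 and Mt2 near 0 on the vertical axis.

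Markers of the captured cells moved with these values. The Leydig hormone Insl3 stood at 0.91 and -1.29 (DEHP mice 1 and 4) and at -1.02, 0.50 and 0.90 (vehicle mice 1, 2 and 4), and the cholesterol importer Star followed with 0.81, -0.72, -0.95, 0.57 and 0.29. The median of 12 tested Leydig markers stood at 0.67 and -0.73 (DEHP mice 1 and 4) and at -0.46, 0.27 and 0.40 (vehicle mice 1, 2 and 4). All 12 were lower in DEHP mouse 4 than 1, and 10 were lower in vehicle mouse 1 than 2. The low mice were those in which most antioxidant genes were low: 24 of the 33 members, against 49.0% of all genes, had their lowest value in DEHP mouse 4 or vehicle mouse 1.

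Germ cell transcripts ran the other way. The median of 18 spermatid markers stood at -0.02 and 0.73 (DEHP mice 1 and 4) and at 0.19, -0.52 and -0.40 (vehicle mice 1, 2 and 4), and 17 of the 18 were higher in DEHP than in vehicle mice on average. The protamine Prm1 measured 0.32 and 0.88 in the DEHP mice and -0.13, -0.73 and -0.34 in the vehicle mice, and the transition protein Tnp1 measured 0.12, 1.26, -0.32, -0.76 and -0.30. Both separated the groups as Keap1 did, with DEHP mouse 4 highest. Of the 18 markers, 4 had both DEHP mice above all vehicle mice, Prm1 and Tnp1 among them, against 3.95% of all genes. In the other spermatid markers the groups overlapped. All markers named here were well above background in all channels, so spermatid RNA was present in the captured material of every mouse. In such bulk samples fewer cells of a type and less RNA per cell cannot be told apart, and the part of the marker differences in the antioxidant values was not tested.

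Markers of the other cell types differed between the mice as well. Over 11 tested macrophage markers the medians were 0.31, -0.24, -0.39, 0.03 and 0.42 in DEHP mice 1 and 4 and vehicle mice 1, 2 and 4, which is the order of the members. Over 7 myoid markers they were 0.01, -0.88, -0.29, 0.96 and 0.19, and over 7 endothelial markers 0.20, -0.17, -0.66, 0.35 and -0.09. In both of these lists vehicle mouse 1 and DEHP mouse 4 were the lowest mice too, and all 7 genes of each were lower in vehicle mouse 1 than 2. Over 9 spermatocyte markers they were -0.23, 0.17, 0.33, -0.03 and -0.05, and over 11 Sertoli markers -0.18, -0.04, 0.15, -0.09 and 0.07. Both DEHP mice lay below all vehicle mice for 2 of the spermatocyte and 2 of the Sertoli markers, against 5.22% of all genes. For 1 macrophage marker both lay above, against 3.95% of all genes. The blood list had 2 tested genes of 6. Vehicle mouse 2 was highest for myoid and endothelial genes, while the median of the antioxidant genes in it was 0.02.

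**Figure D5:**
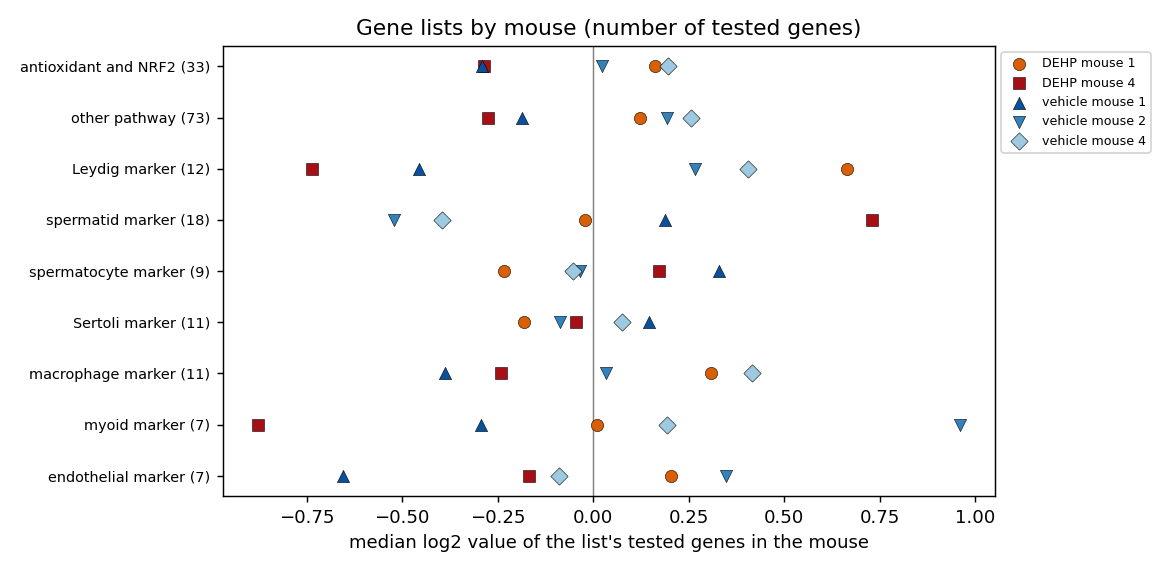
The horizontal axis gives the median log2 value of each gene list in each mouse, centred on the mean of all 5, with the number of tested genes beside each list name. The medians of the 33 antioxidant and NRF2 genes (DEHP mice 1 and 4 at 0.16 and -0.29, vehicle mice 1, 2 and 4 at -0.29, 0.02 and 0.20) are lowest in the same 2 mice as those of the Leydig, macrophage, myoid and endothelial markers, and these 2 mice are the highest for spermatid markers.

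Another 80 genes of the same pathways were looked at, among them small MAF partners of NRF2, glutathione transferases, glutaredoxins and export pumps. Of these 73 were tested, 27 were above 0 and 46 below, and the median difference was -0.09. None passed the adjusted threshold, and 0 had an unadjusted p under 0.05. The DEHP mice lay above all vehicle mice for 2 of the 73 and below them for 3, against 3.95% and 5.22% of all genes.

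Nqo2, a quinone reductase related to Nqo1, stood at 0.09 and 0.55 (DEHP mice 1 and 4) and at -0.11, -0.26 and -0.27 (vehicle mice 1, 2 and 4), a difference of 0.53 (SE 0.22). As for Keap1, DEHP mouse 4 was highest and DEHP mouse 1 next. Glrx5, a mitochondrial glutaredoxin of iron-sulfur cluster assembly, differed by 0.17 (SE 0.19) with DEHP values of 0.08 and 0.12.

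In 3 genes both DEHP mice lay below all vehicle mice. Maff, a small MAF protein that pairs with NRF2 on DNA, stood at -0.50 and -0.13 (DEHP mice 1 and 4) and at 0.01, 0.49 and 0.13 (vehicle mice 1, 2 and 4), a difference of -0.53 (SE 0.25). Its relative Mafk differed by -0.18 (SE 0.18) and was above background in 1 DEHP and 6 vehicle channels of 12. Mafk thus passed the filter on dim probes through vehicle mice alone, which favours a lower DEHP value. Its place among the 3 is no support for a difference. Sesn3, a sestrin, differed by -0.24 (SE 0.19). Catalase, Cat, differed by 0.03 (SE 0.20).

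Some glutathione transferases of the mu and alpha classes were low in the same 2 mice. Gstm2 stood at 1.03 and -1.67 (DEHP mice 1 and 4) and at -0.90, 0.80 and 0.74 (vehicle mice 1, 2 and 4), and Gsta3 measured 0.76, -1.56, -1.07, 1.14 and 0.72. Gstm5, also of the mu class, ran the other way with -0.05, 0.58, 0.52, -0.69 and -0.35, and in Gsta1, Gsta2 and Gsta4 vehicle mice 1 and 2 lay within 0.03 of each other. These genes were named after their values were seen. Neither Gstm2 nor Gsta3 separated the groups, with differences of -0.53 (SE 0.91) and -0.67 (SE 0.91).

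NRF2 binds antioxidant response elements, whose core was searched as TGACNNNGC on both strands in RefSeq promoter windows (assembly GRCm38.p6, 250 bases before to 50 after each gene start). A window was listed for 30 of the 35 members, and 8 of them, or 26.7%, held the core, against 14.0% of the 27025 genes with a window and 12.4% of the 32851 windows. The 8 were Nfe2l2, Gclm, Prdx1, Srxn1, Txnrd1, Mt2, Sod1 and G6pdx, and Txnrd1 had it in 1 of 3 windows. The members without a listed window were Hmox1, Gclc, Gsr, Prdx6 and Sod3. Stretches of 4 members are printed, 3 from genes lower in DEHP mouse 4 than 1 and Mt2 as one that was higher, with the core in capitals, 5′ to 3′ on the strand of the gene.
Nfe2l2: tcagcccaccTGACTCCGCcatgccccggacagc
Prdx1: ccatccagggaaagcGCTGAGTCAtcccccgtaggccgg
Txnrd1: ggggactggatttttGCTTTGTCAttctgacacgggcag
Mt2: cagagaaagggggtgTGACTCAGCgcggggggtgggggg
They lie at chr2:75704880-75704913 (minus strand), chr4:116685451-116685489, chr10:82859099-82859137 and chr8:94172524-94172562 (plus strand) of GRCm38.p6, with the core starting 240, 133, 92 and 79 bases before the gene start.

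The core letters of Prdx1 and Mt2 are the same on opposite strands. Prdx1 was 0.36 lower and Mt2 0.93 higher in DEHP mouse 4 than in DEHP mouse 1. In vehicle mouse 1 minus 2 they differed by -0.22 and -0.01, and Mt2 was not called there. Whether the core bears on these values was not tested. Of the 8, Nfe2l2, Prdx1, Txnrd1, Sod1 and G6pdx were lower in DEHP mouse 4 than 1, Srxn1 and Mt2 were higher, and Gclm was not measured. A match of letters is no evidence of binding, and no match in a window says nothing of the factor.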

How the data were processed

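Scanner intensity files of 12 arrays, 2 colours each, were analysed. Per the file headers, the deposited spot intensity (mean signal and local background) came from Feature Extraction 9.5.1.1, and arrays were not normalized to each other. The deposited processed intensity was an alternative, and the deposited log10 ratio and spot flags served to check direction and to filter. The authors' deposited value table holds log2 ratios of DEHP over vehicle; scale and direction were found by setting it against the scanner ratios (r = 0.915 to 0.993, column medians -0.06 to 0.00), and its normalization and filter are not given in the sources used here. The submitters' processing notes name limma.

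With limma 3.58.1 in R 4.3.3, normexp was used on the background (offset 50), arrays were normalized by loess with control spots at weight 0, and outlier spots were left out. Least squares on the 12 log2 ratios estimated the 5 mice and a dye effect. Probes well above background in at least 50% of the channels of at least 2 mice were kept (21198 of 41174). Between 35.5% and 54.4% of probe spots per channel were well above background. The brightest probe stood for a gene. The log2 intensities per mouse given for the Gsr probes came after a further normalization between arrays (Aquantile) and did not enter the tests. Mouse values were compared with lmFit and eBayes and Benjamini-Hochberg adjustment over 15830 genes. The number of arrays limits the precision of each mouse value. The steps were tested on simulated data.

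Members, gene lists and tests were chosen with earlier results of these data known. Named with values in every mouse are the regulators, the best-known NRF2 targets, members whose groups do not overlap, the member of largest absolute difference in each role and the 4 of widest range over mice. From the 80 other pathway genes, those whose groups do not overlap are named. Positions are those of the files (mm7); exon annotation of that assembly was not used here.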

Additional observations from a re-analysis of the deposited data

How the results depend on the processing

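Values were recomputed under the settings named below. The count of members past an adjusted p of 0.05 was 0 under every setting that allows a test, leaving out each mouse included. The members' median difference stayed between -0.01 (each probe tested on its own) and 0.10 (the scanner's processed signals) under settings that kept all 5 mice. On slides 1, 2 and 3 alone it was 0.10, 0.14 and -0.22. Slides 1 and 2 hold vehicle mice 1 and 2 only, and slide 3 holds vehicle mouse 4 only, so these values leave out mice too. With 1 mouse left out the median ran from -0.27 to 0.34, the ends without DEHP mouse 1 and DEHP mouse 4. With the mouse number of mice 1 and 4 as a replicate block the median was 0.04 and the count 0, and the numbers name mice and do not pair them. The unadjusted p of Keap1 was above 0.05 without DEHP mouse 4, without each vehicle mouse in turn, with mice 1 and 4 alone, with the block or not, with the scanner's processed signals and with the authors' deposited table, and its difference stayed between 0.42 and 1.27.

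A sign change was counted where the value also moved by more than its standard error. Of 644 values of single members under other settings 569 kept their sign, 61 changed sign by less, and 14 reversed. On slide 3 alone Prdx3 was -0.48, Txn1 -0.62, Txnrd2 -0.35, Taldo1 -0.42 and Tkt -0.46, and on slide 2 alone Prdx1 was 0.24. Leaving out 1 mouse at a time gave -0.58 to 0.31 for Nqo1, -1.41 to 0.43 for Gpx1, -0.50 to 0.16 for Sod2, -1.30 to 0.36 for Prdx2, -0.49 to 0.54 for Txn1, -0.47 to 0.87 for Ftl1, -2.18 to 0.35 for Fth1 and -0.37 to 0.32 for G6pdx. The cause was not tested. Slide cannot be told apart from dye orientation on slides 1 and 2, or from vehicle mouse 4 on slide 3. In the authors' deposited table, which held 22 of the members, the median was 0.04 and Keap1 was 0.91. The members called between vehicle mice 4 and 2 were 8 with the scanner's processed signals in place of 16. The share of all genes called under that setting was not computed, so the drop cannot be read as particular to the members.

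A dye effect for each slide could not be fitted. One for slides 1 and 2 and another for slide 3, and the fit on mice 1 and 4 alone, were added after seeing the data, as were the other settings for contrasts of single mice. The 5 mice limit the comparison: genes near background (Gpx2, Gpx3, Sod3, Hmox1, Slc7a11) give compressed differences.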
